A study of Mus musculus with 10 samples.

Results

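The genes described here form the antioxidant, glutathione, metallothionein and iron module of the mouse retina, 43 genes listed by function. Of these, 39 were among the 11702 genes of the gene table, and Hmox1, Nqo1, Prdx4 and Slc40a1 were found only among the transcripts. All 39 passed the filter on low counts in each of the 5 comparisons. RNA was sequenced from retinas of 10 female mice, all injected into the vitreous with 1 μL at postnatal days (P) 10 and 24 and collected at P36. The rd10 mice (B6.CXB1-Pde6b rd10/J) carry a mutation of Pde6b, the rod phosphodiesterase subunit, that causes rod degeneration. Of these, 3 received DMSO, the vehicle (rd10 DMSO, libraries D1 to D3), and 3 received 20 μM halofantrine, an antimalarial drug (rd10 HAL, H1 to H3). The 4 libraries labelled WT came from mice given DMSO (W1 to W4), and the WT strain is not given in the sources used here. Batch 1 held W1 to W4, D1, D2 and H1, and batch 2 held D3, H2 and H3, so no WT library was in batch 2. The sample titles divide the batches further. W1 to W3 carry the name of a set of their own, W4 of another, and D1, D2 and H1 of another, while in batch 2 the titles of H2 and H3 differ from that of D3. What a set stands for is not given in the sources used here, and within batch 1 set and genotype, as within batch 2 set and drug, cannot be told apart.

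As background, NRF2, encoded by Nfe2l2, is held for degradation by KEAP1 and, once released, binds antioxidant response elements of genes that supply glutathione, reduce thioredoxin and conjugate reactive molecules. Peroxiredoxins, catalase and glutathione peroxidases remove peroxides, with electrons from thioredoxin or glutathione. Metallothioneins bind zinc and copper and are switched on by the zinc sensor MTF1 at metal response elements, whereas ferritin stores iron, ceruloplasmin oxidises it for export and the transferrin receptor takes it up. In the retina Müller glia are a main site of glutathione and metallothionein genes, and photoreceptors, with their high oxygen use and polyunsaturated membranes, are exposed to lipid peroxidation.

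Gene counts summed to 15512212 to 38160436 per library. Levels are the deposited CPM values, counts divided by the effective library size the authors used, here called scaled CPM. Differences are log2 fold changes from edgeR's quasi-likelihood test on the counts, and a gene was called at an adjusted p under 0.05 over all genes tested. The library labelled WT W4 went against its label: Pde6b was at 2692, 2838 and 2862 in W1 to W3, and 92.7 in W4, beside 124 to 387 over the 6 rd10 libraries. On the log2 scale W4 was nearer to the rd10 mean than to the mean of W1 to W3 for 36 of the 39 members (92.3%), against 88.1% of all genes, and for all 22 of those called below, against 98% of the 7280 genes called between rd10 DMSO and W1 to W3, so each comparison with WT is given with and without it. Summed over 8 rod markers, levels were 67541 to 71667 in W1 to W3 and 3449.9 to 10064 in D1 to D3. The 8 Müller glia genes summed to 4165 to 4306 and 6374 to 7758, 7 of 8 gliosis genes to 244 to 277 and 1169 to 1301, and 5 of 10 microglia genes to 23.05 to 30.8 and 107 to 143 (Aif1, Tmem119, P2ry12, Cd68 and Tyrobp were not in the gene table). The ratio of the group means was 1.82 for 6 bipolar genes and 1.62 for 6 amacrine genes. In bulk retina, fewer cells of a type and less RNA per cell cannot be told apart, and the part of these shifts in the members' differences was not tested.

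The comparison of rd10 DMSO with W1 to W3 asks how the module stands in the degenerated retina under vehicle. Of the called members the metallothioneins Mt2 and Mt1 rose most, Mt2 by 12.7-fold and Mt1 by 6.29-fold, followed by the glutathione transferases Mgst1 (4.71-fold) and Gstm1 (3.53-fold), ceruloplasmin (Cp, 2.60-fold), Txnip (2.57-fold), Prdx6 (2.46-fold) and the cystine transporter Slc7a11 (2.45-fold). Gpx4, the lipid peroxide reductase, and Gss, glutathione synthetase, fell to 0.661 and 0.769 of the WT level. In all, 22 of the 39 members were called, against 62.2% of all genes tested. Of these, 20 were higher, against 32.3% of all genes, 2 were lower, against 29.9%, and 17 members were not called. The median log2 fold change of the members was 0.27, beside -0.01 over all genes. Members whose libraries did not overlap between D1 to D3 and W1 to W3 numbered 24, against 69.4% of all genes, with 21 higher (33.4% of all genes) and 3 lower (36%). Over all 6 rd10 libraries, 22 members did not overlap W1 to W3, 20 higher and 2 lower, beside 63.9% of all genes, 31.1% higher and 32.8% lower. With W4 among the WT libraries edgeR called 0 of the 39 members and 0 genes in all, DESeq2 called 0 members (589 genes in all) and limma-voom 0. In edgeR 6 of the 39 members had an unadjusted p under 0.05, all higher, beside 3108 of 11698 genes, 1088 higher and 2020 lower.

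**Figure D1:**
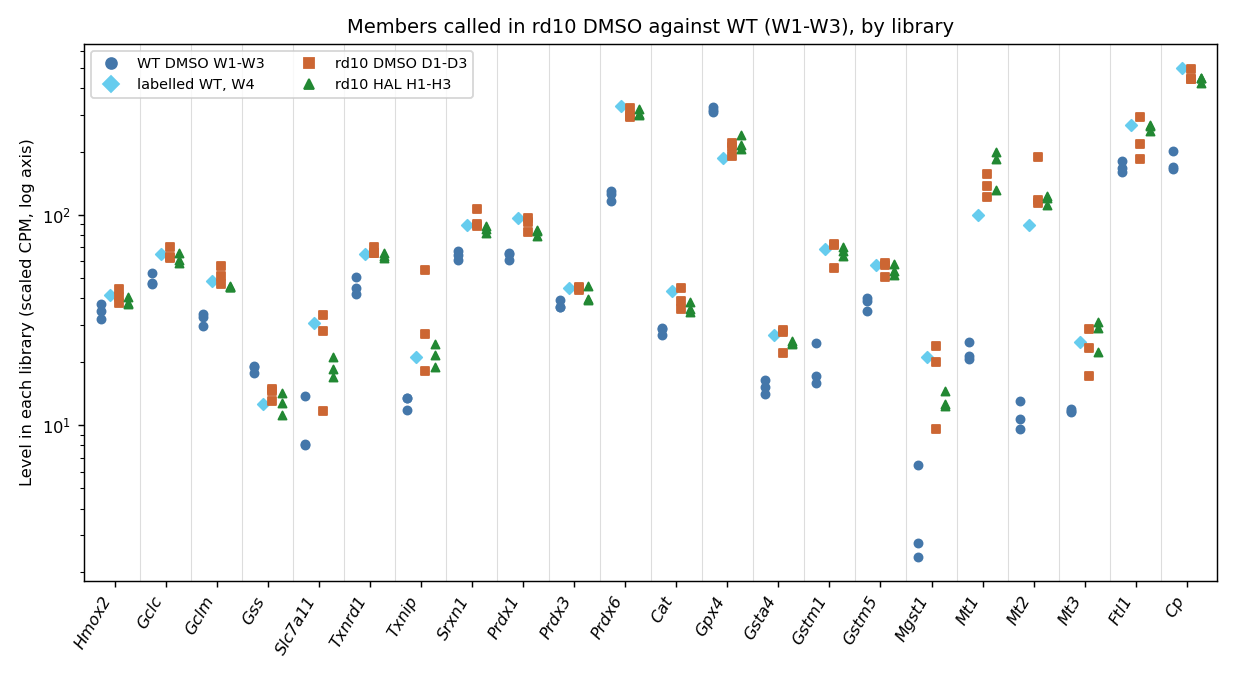
Levels in scaled CPM (log axis) of the 22 members called in rd10 DMSO against W1 to W3, 1 point per library, with blue circles for W1 to W3, light blue diamonds for W4, orange squares for D1 to D3 and green triangles for H1 to H3. Mt2 lay at 9.56, 13 and 10.6 in W1 to W3 and at 117, 114 and 189 in D1 to D3, and W4 was nearer to the rd10 mean for each of the 22 members.

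Metallothioneins bind zinc and copper through cysteine clusters, Mt1 and Mt2 in most tissues including glia and Mt3 mainly in the nervous system. Mt2 was at 9.56, 13 and 10.6 scaled CPM in W1 to W3, at 117, 114 and 189 in D1 to D3, at 112, 123 and 121 in H1 to H3 and at 89.2 in W4. The lowest rd10 library thus lay far above the highest of W1 to W3, and D3 stood above every other rd10 library. The log2 fold change in rd10 DMSO was 3.67 (SE 0.23, adjusted p = 2.57e-05).

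Mt1 was at 21.3, 24.7 and 20.6 in W1 to W3, at 138, 121 and 157 in D1 to D3, at 131, 183 and 199.8 in H1 to H3 and at 99.8 in W4. The groups did not overlap, and the levels of H2 and H3 were above those of all other rd10 libraries. Its log2 fold change was 2.65 (SE 0.12, adjusted p = 1.21e-05). Mt3, a zinc buffer of neurons and glia, was at 11.9, 11.7 and 11.6 in W1 to W3, at 23.3, 17.1 and 28.7 in D1 to D3, at 22.1, 29.1 and 31.1 in H1 to H3 and at 24.9 in W4. It rose less, with a log2 fold change of 0.98 (SE 0.18, adjusted p = 0.00225), and D2 was its lowest rd10 library. All 3 calls held when any 1 of the 6 libraries was left out. With W4 kept, the log2 fold changes were 2.19 for Mt2, 1.73 for Mt1 and 0.62 for Mt3, with adjusted p-values of 0.187, 0.187 and 0.216.

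Per length of the mean transcript, the ratio of Mt2 to Mt1 was 0.501, 0.586 and 0.575 in W1 to W3 and 0.950, 1.05 and 1.34 in D1 to D3. It was 0.949, 0.750 and 0.675 in H1 to H3 and 0.997 in W4. The 6 rd10 libraries and W4 all lay above W1 to W3 in this ratio, which is a description without a test. Which of the 2 genes was higher depended on the length used, since with the longest transcripts the ratio was 0.953, 1.12 and 1.09 in W1 to W3 and 1.81, 2 and 2.56 in D1 to D3.

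The 3 metallothionein genes are neighbours on chromosome 8, and their promoters are shown because they moved together and because MTF1 binds a known core. The sequences are the 250 bases before each start in RefSeq (GRCm38.p6), 5′ to 3′, with capitals for matches on either strand to the metal response core TGCGCNC or TGCACNC and, in Mt2, to the antioxidant response core TGACNNNGC.
Mt2, chr8:94172368-94172617, + strand: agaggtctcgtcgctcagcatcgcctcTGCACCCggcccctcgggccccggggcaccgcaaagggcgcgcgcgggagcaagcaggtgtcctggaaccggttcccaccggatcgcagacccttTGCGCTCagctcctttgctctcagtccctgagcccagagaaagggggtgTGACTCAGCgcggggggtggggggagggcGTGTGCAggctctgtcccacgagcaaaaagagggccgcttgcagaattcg
Mt1, chr8:94178839-94179088, + strand: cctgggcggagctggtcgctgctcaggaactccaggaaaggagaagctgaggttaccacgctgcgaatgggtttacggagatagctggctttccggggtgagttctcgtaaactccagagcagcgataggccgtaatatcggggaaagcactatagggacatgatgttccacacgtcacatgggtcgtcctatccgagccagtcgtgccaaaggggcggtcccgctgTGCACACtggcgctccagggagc
Mt1, first 30 bases after the start, chr8:94179089-94179118, + strand: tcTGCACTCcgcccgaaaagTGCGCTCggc
Mt3, chr8:94152357-94152606, + strand: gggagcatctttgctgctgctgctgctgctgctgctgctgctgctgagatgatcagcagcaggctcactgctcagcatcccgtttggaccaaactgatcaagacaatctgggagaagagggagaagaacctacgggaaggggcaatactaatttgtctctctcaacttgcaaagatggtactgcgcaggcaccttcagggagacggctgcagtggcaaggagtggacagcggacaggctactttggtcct

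In the window from 250 bases before to 50 after the start, Mt2 had metal response matches beginning at -223, -128, -50 and 5 and an antioxidant response match at -79. Mt1 had metal response matches at -23, 3 and 21, and Mt3 had 1, at 28. Gclm, described further on, also had 3, at -138, -72 and 28. Of 32851 RefSeq windows of this length, 25.7% held at least 1 metal response match, 1.97% held at least 3 and 0.517% held at least 4, and 12.4% held an antioxidant response match. Of the 43 listed genes 37 had a window, those without being Gclc, Gsr, Gsta4, Hmox1, Prdx6 and Slc40a1. A metal response match was found in 14 of their 50 windows (28%) and an antioxidant response match in 9 (18%). A match describes letters and not binding. Positions count from the RefSeq start of each window, and whether transcription began there in these retinas was not tested. Sites outside the window were not counted, so the numbers of matches do not rank Mt1, Mt2 and Mt3 by their metal response elements. Mtf1 itself, the zinc sensor, was lower in rd10 DMSO, at 60.7 ± 3.53 in W1 to W3 and 41.9 ± 1.58 in D1 to D3, with a log2 fold change of -0.52 (SE 0.07, adjusted p = 0.000393).

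Nfe2l2 and Keap1, for NRF2 and its inhibitor, did not pass the test. Nfe2l2 was at 24.7, 25.7 and 27.6 in W1 to W3, at 28.7, 25.2 and 33.6 in D1 to D3, at 27.8, 27.7 and 28.2 in H1 to H3 and at 25.7 in W4, and its groups overlapped. Its log2 fold change was 0.18 (SE 0.11, adjusted p = 0.207). Keap1 ranged from 42.4 to 49.1 in W1 to W3 and from 40.5 to 50.4 in D1 to D3, with a log2 fold change of 0.01 (SE 0.10, adjusted p = 0.957). Hmox2, the constitutive heme oxygenase, was at 37.6, 34.8 and 32 in W1 to W3, 40.5, 38.1 and 44.5 in D1 to D3, 40.7, 37.9 and 37.7 in H1 to H3 and 41.4 in W4. D2 was only just above W1, and the log2 fold change was 0.25 (SE 0.09, adjusted p = 0.0437). That call was lost without W1 (adjusted p = 0.0505), W2 (0.103), W3 (0.136), D1 (0.0843) or D3 (0.0514).

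Among the 5 glutathione supply genes 3 rose and 1 fell, beside 32.3% and 29.9% of all genes. Gclm, the modifier subunit of glutamate-cysteine ligase, which makes the first intermediate of glutathione, was at 33.7, 29.5 and 32.8 in W1 to W3, 51.4, 46.96 and 57.2 in D1 to D3, 45.7, 45.3 and 45.3 in H1 to H3 and 48.5 in W4. All rd10 libraries lay above W1 to W3, and its log2 fold change was 0.71 (SE 0.09, adjusted p = 0.000425). Gclc, the catalytic subunit, was at 46.9, 52.96 and 47.4 in W1 to W3, 62.3, 63.03 and 70.5 in D1 to D3, 61.1, 65.96 and 59.1 in H1 to H3 and 64.9 in W4. It also did not overlap, with a log2 fold change of 0.42 (SE 0.08, adjusted p = 0.00248). Gss, which adds glycine to complete glutathione, was at 19, 17.7 and 18.8 in W1 to W3, 12.96, 14.4 and 14.8 in D1 to D3, 11.1, 14.2 and 12.7 in H1 to H3 and 12.5 in W4. Every rd10 library was below W1 to W3, and the log2 fold change was -0.38 (SE 0.09, adjusted p = 0.00741). With library size as the only scaling, which moves the median log2 fold change of all genes from -0.01 to 0.19, Gss was at -0.17 (adjusted p = 0.125). Gsr, glutathione reductase, ranged from 17.3 to 17.9 in W1 to W3 and from 14.5 to 18.3 in D1 to D3 and was not called (adjusted p = 0.725).

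Slc7a11, the cystine importer, was at 7.99, 8.15 and 13.7 in W1 to W3, at 27.95, 11.6 and 33.3 in D1 to D3, at 18.5, 17 and 21.1 in H1 to H3 and at 30.4 in W4. The groups overlapped, as D2 lay below W3. The log2 fold change was 1.29 (SE 0.40, adjusted p = 0.0235), and the call was lost without W1 (adjusted p = 0.0865), W2 (0.0837) or D1 (0.0628) and with limma-voom (0.0909).

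Antioxidant response matches (TGACNNNGC, either strand) stood before the start of 5 further members that rose in rd10 DMSO. The 41 bases around each are shown, from RefSeq windows (GRCm38.p6), 5′ to 3′ on the gene's strand, with the match in capitals, so that their cores can be compared with that of Mt2.
Gclm, chr3:122245407-122245447, + strand: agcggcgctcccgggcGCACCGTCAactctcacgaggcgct
Prdx1, chr4:116685450-116685490, + strand: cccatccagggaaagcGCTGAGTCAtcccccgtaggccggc
Txnrd1, chr10:82859098-82859138, + strand: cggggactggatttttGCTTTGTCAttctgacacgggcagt
Mgst1, chr6:138140455-138140495, + strand: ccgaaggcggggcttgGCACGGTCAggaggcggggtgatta
Gstm5, chr3:107895796-107895836, + strand: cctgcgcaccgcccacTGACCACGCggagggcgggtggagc

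These matches began at -134 in Gclm, -133 in Prdx1, -92 in Txnrd1, -56 in Mgst1 and -42 in Gstm5. The remaining matches among the members were in Mt2, in Srxn1 at 29, in Nfe2l2 at -240 and in Sod1 at -56, and the last 2 genes were not called in rd10 DMSO.

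In the thioredoxin system 3 of 6 genes rose, beside 32.3% of all genes. Txnrd1, the cytosolic thioredoxin reductase, was at 44.7, 41.9 and 50.7 in W1 to W3, 65.8, 65.6 and 70.1 in D1 to D3, 66.1, 63.7 and 62.5 in H1 to H3 and 65.2 in W4. Srxn1, sulfiredoxin, which repairs overoxidised peroxiredoxins, was at 64.4, 66.9 and 60.7 in W1 to W3, 90.05, 88.1 and 107 in D1 to D3, 85.3, 88.04 and 81.7 in H1 to H3 and 89.6 in W4. Neither gene overlapped between the groups, with log2 fold changes of 0.57 (SE 0.08, adjusted p = 0.000579) and 0.58 (SE 0.09, adjusted p = 0.000886). Txnip, which binds thioredoxin and limits glucose uptake, was at 13.5, 13.4 and 11.8 in W1 to W3, 27.2, 18.1 and 54.6 in D1 to D3, 18.9, 21.4 and 24.4 in H1 to H3 and 21.1 in W4. D3 stood far above all other libraries. The log2 fold change of Txnip was 1.36 (SE 0.37, adjusted p = 0.0142), and it was 0.82 (adjusted p = 0.00196) without D3. The call was lost without W3 (adjusted p = 0.0535) and with limma-voom (0.0542). Txn1, Txn2 and Txnrd2, the cytosolic and mitochondrial thioredoxins and the mitochondrial reductase, were not called, with log2 fold changes of 0.20, -0.04 and 0.13 and standard errors of 0.11, 0.08 and 0.12.

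Among the 5 peroxiredoxins tested, 3 rose, beside 32.3% of all genes. Prdx6, which reduces phospholipid peroxides with glutathione, was at 117, 130.3 and 126 in W1 to W3, 321, 291 and 296 in D1 to D3, 298, 319.7 and 303 in H1 to H3 and 328 in W4. The 6 rd10 libraries lay between 291 and 321, all above the highest of W1 to W3, and the log2 fold change was 1.30 (SE 0.07, adjusted p = 1.71e-05). Prdx1, a cytosolic peroxidase, was at 60.96, 65.2 and 66.1 in W1 to W3, 91.96, 82.4 and 96.3 in D1 to D3, 84.01, 79.7 and 84.6 in H1 to H3 and 97.01 in W4. Prdx3, its mitochondrial relative, was at 36.6, 39.3 and 36.4 in W1 to W3, 45.1, 44.7 and 43.8 in D1 to D3, 39.7, 45.6 and 39.5 in H1 to H3 and 45.1 in W4. Both lay higher in D1 to D3 without overlap, with log2 fold changes of 0.51 (SE 0.07, adjusted p = 0.000754) and 0.27 (SE 0.07, adjusted p = 0.00904). Prdx2 and Prdx5 were not called, at 0.17 (SE 0.07) and 0.17 (SE 0.08).

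Catalase (Cat) was at 26.9, 28.6 and 28.8 in W1 to W3, 44.7, 38.8 and 35.7 in D1 to D3, 38.5, 35.5 and 34.6 in H1 to H3 and 43.6 in W4. Each rd10 library was above W1 to W3, and the log2 fold change was 0.52 (SE 0.10, adjusted p = 0.00245). The superoxide dismutases were not called. Sod1, the cytosolic enzyme, was 81.9 ± 4.09 in W1 to W3 and 85.4 ± 7.68 in D1 to D3 (SD, n = 3 each), and Sod2, the mitochondrial enzyme, was 171 ± 3.82 and 186 ± 5.86. Sod2 was the member with the smallest spread within groups, a mean coefficient of variation of 2.14% against a median of 7.18% over the 39 members.

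Gpx4 was the member with the most negative log2 fold change. This selenoprotein, which reduces phospholipid hydroperoxides in membranes, was at 315, 324 and 308 in W1 to W3, at 209.7, 191 and 219 in D1 to D3, at 206, 239 and 215 in H1 to H3 and at 186 in W4. All rd10 libraries lay below W1 to W3. The log2 fold change was -0.60 (SE 0.07, adjusted p = 0.000258), and the call held without any 1 of the 6 libraries. With W4 kept it was -0.45 (SE 0.20, adjusted p = 0.189). Gpx1, the cytosolic glutathione peroxidase, was at 18.5, 20.7 and 18.1 in W1 to W3 and 26.2, 22.6 and 19.3 in D1 to D3, which overlapped, and was not called (adjusted p = 0.0949).

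Gpx3, the secreted glutathione peroxidase, varied more within groups than any other member, with a mean coefficient of variation of 95.6%. It was at 5.21, 5.42 and 69.1 in W1 to W3, at 311, 10.96 and 91.3 in D1 to D3, at 80, 55.4 and 112 in H1 to H3 and at 247 in W4. W1, W2 and D2 were low and all other libraries were high, in groups of either genotype. The log2 fold change was 2.42 (SE 1.31, adjusted p = 0.145), and it was 4.71 with an adjusted p of 0.0348 without W3. Gja1, a connexin listed here as an astrocyte marker, was at 5.49, 5.06 and 44.8 in W1 to W3, 72.3, 9.88 and 56.9 in D1 to D3, 19.8, 21.2 and 32.2 in H1 to H3 and 68.5 in W4. The sum of 5 pigment epithelium markers (Rpe65, Ttr, Lrat, Rdh5 and Rgr) was 59.8, 47.3 and 288 in W1 to W3, 332, 157 and 204 in D1 to D3, 215, 104 and 116 in H1 to H3 and 204 in W4, while Best1, Tyr and Mlana were not in the gene table. W1 and W2 were the lowest WT libraries, and D2 the lowest of D1 to D3, for Gpx3, Slc7a11, Mgst1, Gja1 and this sum. The same order was seen for Gstm1, Gsta4, Prdx1, Nfe2l2, Fth1 and Cp, so it was not particular to these genes. The other 2 astrocyte markers in the table did not follow Gja1. S100b was at 8.52, 8.28 and 8.36 in W1 to W3 and 16.2, 14.2 and 14.8 in D1 to D3, and Pdgfra at 13.2, 17.6 and 17.3 and 41.5, 41.99 and 54.4. The part of other cell types in these levels was not tested.

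**Figure D2:**
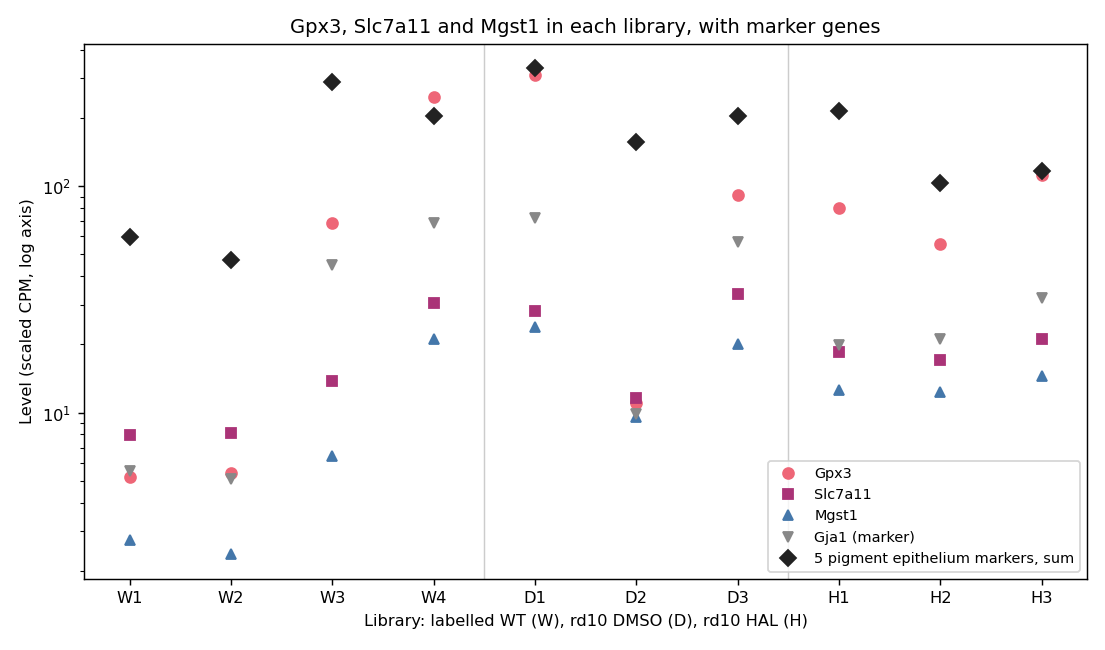
Levels in scaled CPM (log axis) in each library of Gpx3, Slc7a11 and Mgst1, of Gja1 and of the sum of 5 pigment epithelium markers, 1 point per library, with the groups separated by vertical lines. Gpx3 was at 5.21 and 5.42 in W1 and W2 and at 10.96 in D2, and at 55.4 or above in the other 7 libraries.

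Glutathione transferases join glutathione to reactive molecules, and 4 of the 7 genes of this group, which also holds the glutaredoxins, rose, beside 32.3% of all genes. Gstm1, a cytosolic mu class enzyme, was at 15.9, 17.1 and 24.4 in W1 to W3, 72.4, 56.1 and 71.9 in D1 to D3, 69.98, 63.99 and 66.98 in H1 to H3 and 69.05 in W4. All rd10 libraries were above W1 to W3, and the log2 fold change was 1.82 (SE 0.18, adjusted p = 0.000123). Mgst1, a microsomal transferase and peroxidase, was at 2.74, 2.36 and 6.43 in W1 to W3, 23.8, 9.52 and 20.01 in D1 to D3, 12.6, 12.4 and 14.6 in H1 to H3 and 21.2 in W4. D2 and W3 lay nearest each other without overlap, and the log2 fold change was 2.23 (SE 0.46, adjusted p = 0.00419).

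Gsta4, which conjugates the lipid peroxidation product hydroxynonenal, was at 14.1, 15.2 and 16.4 in W1 to W3, 28.4, 22.05 and 27.8 in D1 to D3, 24.6, 25.2 and 24.3 in H1 to H3 and 26.7 in W4. Gstm5 was at 39.99, 38.95 and 34.9 in W1 to W3, 57.9, 50.8 and 58.9 in D1 to D3, 58.05, 51.95 and 53.7 in H1 to H3 and 57.5 in W4. Both lay higher in every rd10 library, with log2 fold changes of 0.79 (SE 0.12, adjusted p = 0.000848) and 0.57 (SE 0.09, adjusted p = 0.000902). Mgst3, Glrx and Glrx5 were not called, with log2 fold changes of 0.17 (SE 0.13), 0.12 (SE 0.12) and -0.27 (SE 0.18). Gstm genes are close relatives, and reads shared between them could be divided by the authors' transcript estimates.

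Among the iron genes Cp and Ftl1 rose. Cp, the ferroxidase ceruloplasmin, was at 165, 169.7 and 202 in W1 to W3, 493, 442 and 443 in D1 to D3, 447, 426 and 446 in H1 to H3 and 497 in W4. The rd10 libraries lay between 426 and 493, above W1 to W3, and the log2 fold change was 1.38 (SE 0.09, adjusted p = 3.35e-05). Ftl1, the ferritin light chain, was at 168, 180.3 and 159 in W1 to W3, 293, 216 and 185 in D1 to D3, 251, 266 and 268 in H1 to H3 and 266 in W4. D3 was close to W2 and below the other rd10 libraries. Its log2 fold change was 0.47 (SE 0.16, adjusted p = 0.0348), and the call was lost without W1 (adjusted p = 0.096), W2 (0.0623), W3 (0.109), D1 (0.0549) or D2 (0.0531). Fth1, the ferritin heavy chain, was at 271, 275 and 285 in W1 to W3 and 315, 274 and 309.8 in D1 to D3 and was not called (adjusted p = 0.155). Tfrc, the transferrin receptor, was at 181, 199 and 193 in W1 to W3, 146, 159 and 222 in D1 to D3, 151, 146 and 151 in H1 to H3 and 162 in W4. D3 was above W1 to W3 and the other rd10 libraries were below them, and Tfrc was not called in rd10 DMSO (adjusted p = 0.554). Without D3 its log2 fold change was -0.31 (adjusted p = 0.00208).

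Iron-responsive elements are stem-loops that the iron regulatory proteins bind, near the start of ferritin and ferroportin mRNAs, where they restrain translation, and near the end of the Tfrc mRNA, where they protect it from decay. They are shown because these members carry them in different numbers and at different ends. A search of the GENCODE M21 transcripts Fth1-201, Ftl1-201, Slc40a1-201 and Tfrc-201 for the loop CAGTGN on 5 paired bases with a bulged C found these sites, in DNA letters, 5′ to 3′, with the bulge and the loop in capitals.
Fth1, bases 90 to 113: ctgCttcaaCAGTGCttgaacgga
Ftl1, bases 81 to 104: ttgCttcaaCAGTGTttgaacgga
Slc40a1, bases 93 to 116: cttCagctaCAGTGTtagctaagt
Tfrc, bases 3318 to 3341: tatCggaagCAGTGCcttccataa
Tfrc, bases 3697 to 3720: tatCgggagCAGTGTcttccataa
Tfrc, bases 3762 to 3785: tatCggagaCAGTGAtctccatat
Tfrc, bases 3809 to 3832: tatCgggaaCAGTGTttcccataa

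The search found 1 element each in Fth1, Ftl1 and Slc40a1 and 4 in Tfrc. mRNA levels do not measure translation, which these libraries did not assay.

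Cp transcripts also differed in their shares. Cp-201 held 37.7, 44.8 and 41.3% of the Cp counts in W1 to W3, 28.3, 29.2 and 33.03% in D1 to D3, 29.7, 30.5 and 29.1% in H1 to H3 and 31.1% in W4. Cp-202 held 22.5, 19.8 and 27.8% in W1 to W3, 30.8, 31.5 and 28.8% in D1 to D3, 30.6, 32.7 and 29.4% in H1 to H3 and 27.7% in W4. The share of Cp-201 was lower and that of Cp-202 higher in all 6 rd10 libraries than in W1 to W3. Both are annotated as coding. Of 46 member transcripts with a mean share between 10% and 90%, from 20 members, 10 had shares in the 6 rd10 libraries that did not overlap those of W1 to W3 (21.7%), against 12.2% of 16580 such transcripts of all genes. Among them, Prdx6-208, annotated for nonsense-mediated decay, held 34.5 to 38.6% in W1 to W3 and 39.2 to 45.2% in rd10, and Keap1-202 held 35.1 to 38.5% and 12.4 to 28.1%. These shares are transcript estimates and were not tested.

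**Figure D3:**
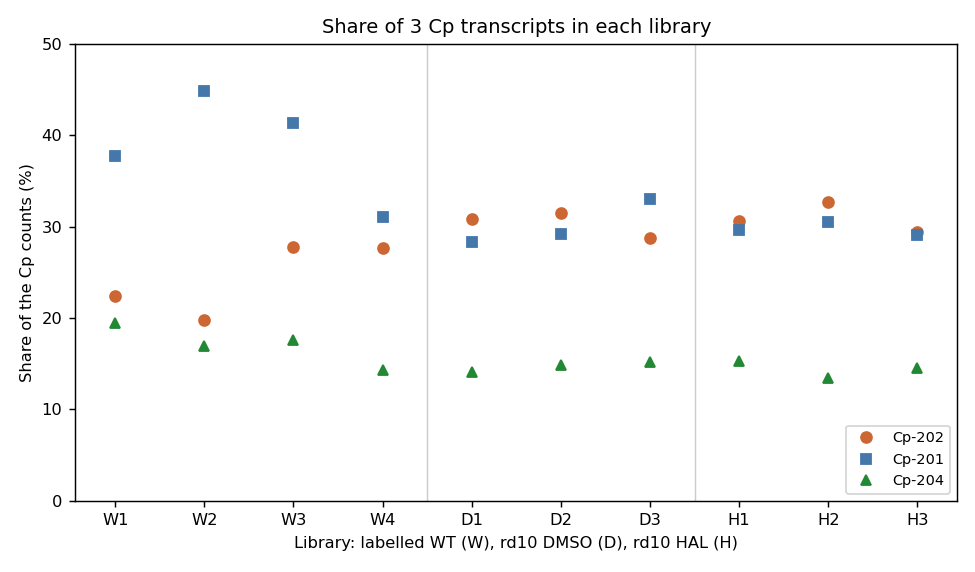
Share (%) of the Cp counts held by each of 3 Cp transcripts in each library, 1 point per library, with the groups separated by vertical lines. Cp-201 lay between 37.7 and 44.8% in W1 to W3 and between 28.3 and 33.03% in the 6 rd10 libraries.

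**Figure D4:**
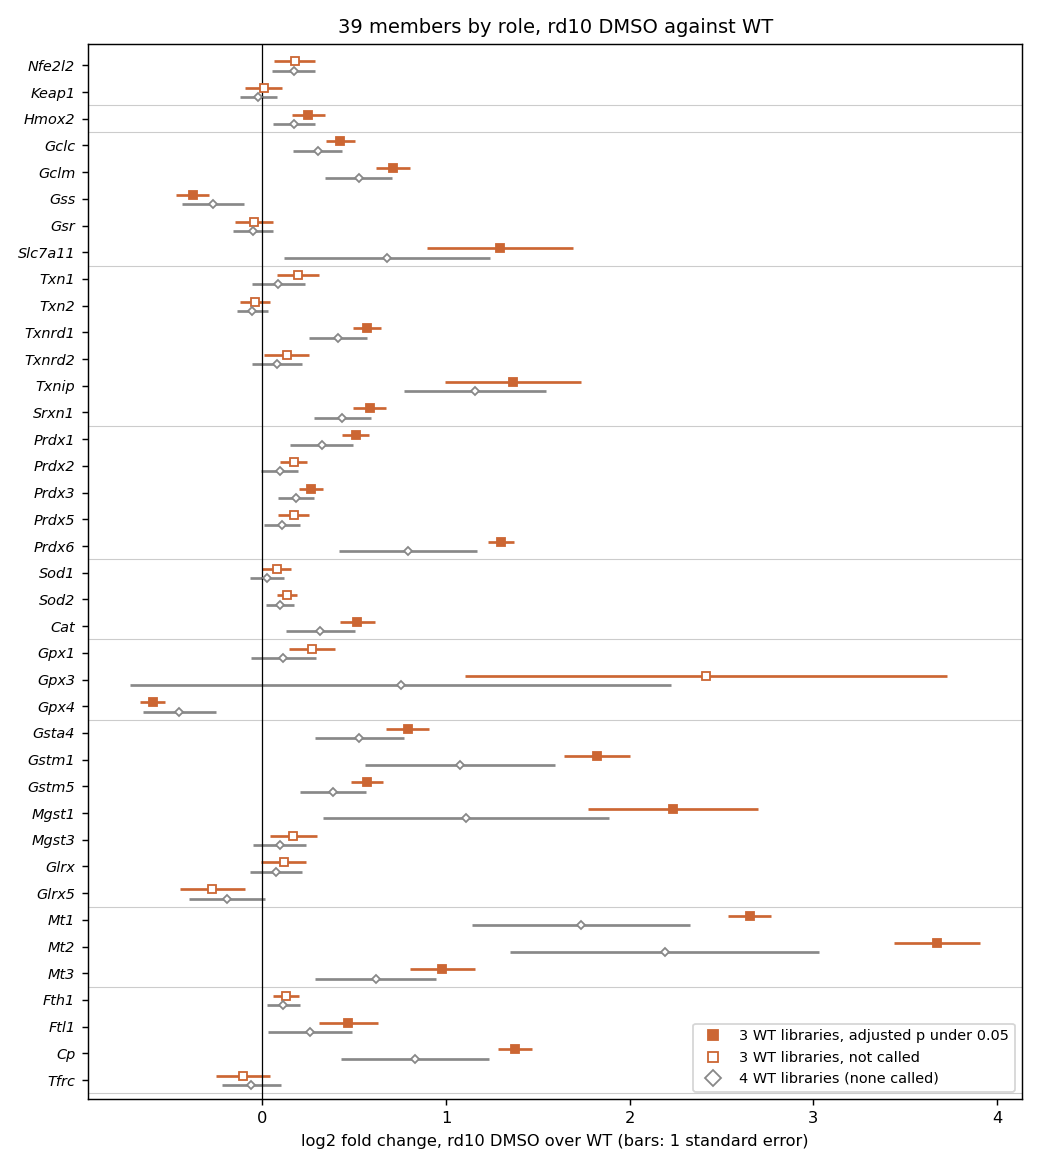
Log2 fold changes of rd10 DMSO over WT for the 39 members, grouped by role with horizontal lines, with bars of 1 standard error, as orange squares with W1 to W3 (filled where called) and grey diamonds with W1 to W4. Mt2 had the largest value with 3 WT libraries, 3.67, and 2.19 with 4.

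The 4 members outside the gene table were read from their transcripts, scaled by the same library factors and not tested. Hmox1, the inducible heme oxygenase, summed to 2.46, 3.56 and 2.16 in W1 to W3, 5.77, 6.63 and 8.87 in D1 to D3, 6.56, 9.55 and 6.38 in H1 to H3 and 6.07 in W4, from 37 to 330.0 counts. Nqo1, a quinone reductase, summed to 3.03, 2.76 and 5.26 in W1 to W3, 8.25, 5.98 and 6.59 in D1 to D3, 5.60, 5.47 and 5.70 in H1 to H3 and 7.06 in W4. Both were higher in every rd10 library than in W1 to W3, with a ratio of the rd10 DMSO and W1 to W3 means of 2.60 for Hmox1 and 1.88 for Nqo1. Prdx4, the endoplasmic reticulum peroxiredoxin, summed to 5.30, 6.43 and 5.79 in W1 to W3, 6.87, 6.90 and 9.60 in D1 to D3, 7.99, 9.70 and 9.11 in H1 to H3 and 7.84 in W4. Slc40a1, the iron exporter ferroportin, summed to 5.35, 6.34 and 6.64 in W1 to W3, 6.91, 7.90 and 7.82 in D1 to D3, 7.18, 7.44 and 8.51 in H1 to H3 and 9.62 in W4. These were also lowest in W1 to W3, though by less, with ratios of 1.33 and 1.23.

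Levels of different genes were compared per length, as scaled CPM per kb of the mean transcript. In W1 to W3 the order began with Gpx4 (370.5 ± 9.72, SD, n = 3), Fth1 (297 ± 7.70), Ftl1 (175 ± 10.9), Prdx2 (108 ± 5.93) and Prdx6 (79.5 ± 4.46), and these neighbours were further apart than their SDs. Mt1 stood at position 12 with 39 ± 3.87 and Mt2 at position 21 with 21.7 ± 3.44. In D1 to D3 the order began with Fth1 (320.4 ± 23.99), Mt2 (274 ± 82.7), Mt1 (243 ± 31.4), Gpx4 (242 ± 16.99) and Ftl1 (239.8 ± 57.3). From Mt2 to Ftl1 the means were within the SDs of the metallothioneins and Ftl1. Fth1 exceeded Mt2 by less than the SD of Mt2, so the first place was not resolved either. The order depended on the length used. With the longest transcript, W1 to W3 gave 317 for Gpx4, 175 for Ftl1, 134 for Fth1, 92.9 for Prdx2 and 48.6 for Prdx6. D1 to D3 then gave 274 for Mt2, 239 for Ftl1, 207 for Gpx4, 145 for Fth1 and 128 for Mt1. Slc7a11 was lowest of the 39 members in both groups with either length, and with the mean transcript at 1.13 ± 0.372 and 2.75 ± 1.28.

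Other genes of these pathways, from lists by function, were read in the same comparison, in which 32.3% of all genes were called higher and 29.9% lower. Among partners of NRF2, 4 of 9 genes tested were called higher (44.4%) and 2 lower (22.2%) (11 listed). Bach2, a repressor that competes at such elements, was 10.2 ± 0.878 in W1 to W3 and 23.7 ± 0.204 in D1 to D3 (SD, n = 3), a log2 fold change of 1.22 (SE 0.09, adjusted p = 4.65e-05). Sqstm1, an autophagy receptor that binds KEAP1, had 0.71 (SE 0.06, adjusted p = 7.49e-05) and Nfe2l1 0.30 (SE 0.10, adjusted p = 0.0277). Cul3, the ubiquitin ligase scaffold that KEAP1 uses, fell, at -0.56 (SE 0.09, adjusted p = 0.00142), as did Btrc at -0.23 (SE 0.05, adjusted p = 0.00847). Among NADPH supply genes, 5 of 12 genes tested were called higher (41.7%) and 5 lower (41.7%). The mitochondrial Me3 and Idh2 and the reticular H6pd rose, by 0.67, 0.61 and 1.25 on the log2 scale, and the malic enzymes Me1 and Me2 and Taldo1, transaldolase, had -0.82, -0.88 and -0.35.

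Against the same shares of all genes (32.3% higher and 29.9% lower), among other glutathione genes 9 of 17 genes tested were called higher (52.9%) and 2 lower (11.8%) (32 listed), with Oplah, which recycles 5-oxoproline, at a log2 fold change of 0.99 (SE 0.12, adjusted p = 0.000297), Gstm7 at 1.10, Gpx8 at 1.11, Gstcd at -0.68 and Hagh at -0.27. Of other thioredoxin fold genes, 6 of 21 genes tested were called higher (28.6%) and 3 lower (14.3%). Nxnl1, which encodes the rod-derived cone viability factor, was 334 ± 3.78 in W1 to W3 and 25.3 ± 11.7 in D1 to D3, and its paralog Nxnl2 was 100.3 ± 3.86 in W1 to W3 and 10.4 ± 2.97 in D1 to D3. Both genes, known from photoreceptors, fell, with log2 fold changes of -3.74 (SE 0.29, adjusted p = 5e-05) and -3.28 (SE 0.17, adjusted p = 1.59e-05). Tmx4, Msrb3 and Nxn rose by 0.47, 1.16 and 0.94, and Tmx1 had -0.57. Of selenoproteins and their synthesis factors, 2 of 16 genes tested were called higher (12.5%) and 4 lower (25%). Selenop, the selenium carrier, was 21.4 ± 2.77 in W1 to W3 and 51.9 ± 14.8 in D1 to D3 and Selenon rose by 0.90, while Sephs2, Secisbp2 and Selenoo had -0.72, -0.50 and -0.29.

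Beside these 32.3% and 29.9% of all genes, of zinc and copper genes 3 of 21 genes tested were called higher (14.3%) and 8 lower (38.1%). The importers Slc39a1 and Slc39a14 rose by 0.82 and 0.53 and Slc30a10 by 0.39, and the copper transporters Slc31a2 and Atp7b fell, with -1.92 (SE 0.27, adjusted p = 0.000598) and -1.75 (SE 0.18, adjusted p = 0.00015). Of genes for iron import, export and control, 6 of 15 genes tested were called higher (40%) and 3 lower (20%). Steap4, a metalloreductase, was 1.11 ± 0.394 in W1 to W3 and 17.98 ± 4.32 in D1 to D3, and Lcn2, which binds iron-loaded siderophores and is also a gliosis gene, was 3.63 ± 0.506 in W1 to W3 and 53.7 ± 20.7 in D1 to D3. Fbxl5, which marks an iron regulatory protein for degradation, was 377 ± 7.47 in W1 to W3 and 180.1 ± 15.95 in D1 to D3, at -1.05 (SE 0.08, adjusted p = 3.98e-05), Pcbp2, an iron chaperone and RNA-binding protein, had -0.86 and Aco1, the other iron regulatory protein, -0.27. Of genes for mitochondrial iron and heme, 2 of 20 genes tested were called higher (10%) and 7 lower (35%). Cpox and Urod, of heme synthesis, and the mitochondrial carrier Slc25a28 had -0.76, -0.67 and -0.67, whereas Fech, which inserts the iron, and Iscu rose by 0.42 and 0.27. Of ferroptosis genes, 2 of 8 genes tested were called higher (25%) and 1 lower (12.5%), namely Acsl4 (0.27) and Lpcat3 (0.42) against Dhodh (-0.39). Rac1, the 1 gene of 11 listed for NADPH oxidases that was in the table, rose by 0.65. None of these genes was called by edgeR with W4 among the WT libraries.

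Against the same WT libraries, which both comparisons share, rd10 HAL gave 24 members called higher and 3 lower of 39, beside 71.9% of all genes, 35.7% higher and 36.2% lower. The median log2 fold change of the members was 0.32. Mt2 rose by 10.8-fold, Mt1 by 7.75-fold and Prdx6 by 2.48-fold, and Gss, Gpx4 and Tfrc fell to 0.689, 0.700 and 0.786 of the WT level. By p, the 3 leading members were Mt2, with a log2 fold change of 3.43 (SE 0.10, adjusted p = 5.07e-07), Prdx6, with 1.31 (SE 0.06, adjusted p = 7.92e-07), and Mt1, with 2.95 (SE 0.16, adjusted p = 1.43e-06). On the lower side they were Gpx4, with -0.51 (SE 0.07, adjusted p = 0.000116), Tfrc, with -0.35 (SE 0.05, adjusted p = 0.000277), and Gss, with -0.54 (SE 0.10, adjusted p = 0.00125). For further members the log2 fold change under HAL was 1.30 for Cp, 1.82 for Gstm1, 1.81 for Mgst1, 1.24 for Mt3 and 0.94 for Slc7a11, all called. With W4 included, edgeR called 0 of the 39 members and 1 gene in all, and the log2 fold changes were 1.95 for Mt2, 2.04 for Mt1, 0.81 for Prdx6, -0.36 for Gpx4, -0.29 for Tfrc and -0.42 for Gss, with adjusted p-values from 0.135 to 0.202.

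Side by side, 7 members were called in rd10 HAL and not in rd10 DMSO, against 12.7% of all genes, and 2, Hmox2 and Prdx3, the other way round, against 3.02%. Sod1 was at 91.3, 98.3 and 96.3 in H1 to H3, all above W1 to W3, with a log2 fold change of 0.23 (SE 0.06, adjusted p = 0.00514). Txn1, cytosolic thioredoxin, was at 28.4, 24.7 and 24.7 in W1 to W3, 33.9, 27.1 and 27.2 in D1 to D3 and 29.1, 30.6 and 30.9 in H1 to H3, with 0.22 (SE 0.07, adjusted p = 0.0217) under HAL. All HAL libraries lay above W1 to W3, and D2 and D3 lay below W1. Prdx2, an abundant cytosolic peroxidase, was at 153, 156 and 140.4 in W1 to W3, 178, 159 and 163 in D1 to D3 and 166, 170.4 and 169 in H1 to H3, with 0.18 (SE 0.05, adjusted p = 0.0146). Prdx5, found in mitochondria and peroxisomes, had 0.17 (SE 0.07, adjusted p = 0.0446). Gpx1 was at 24.2, 23.6 and 23.1 in H1 to H3, with 0.32 (SE 0.08, adjusted p = 0.00464), and Fth1 at 292, 348 and 303, with 0.19 (SE 0.07, adjusted p = 0.0397). The seventh was Tfrc. Left-out libraries ended the calls of Fth1 (adjusted p = 0.12 without W1, 0.0933 without W2, 0.0572 without W3 and 0.11 without H2), Prdx5 (0.0963 without W1, 0.138 without W3, 0.0987 without H1 and 0.117 without H2) and Txn1 (0.0789 without W2, 0.0719 without W3 and 0.0607 without H3). Hmox2 had 0.16 (SE 0.07, adjusted p = 0.0767) and Prdx3 0.16 (SE 0.07, adjusted p = 0.0784). Without D3, 4 of the 7 were called in rd10 DMSO too, namely Prdx2 (adjusted p = 0.0358), Prdx5 (0.028), Gpx1 (0.00849) and Tfrc (0.00208). The test of HAL against DMSO itself called none of these members.

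The comparison of rd10 HAL with rd10 DMSO asks whether the drug changed the module in the degenerating retina. No member was called by edgeR, where 0% of all genes were called, nor by DESeq2, which called 3 genes in all, or limma-voom, which called 0. At an unadjusted p under 0.05 there were 2 of 39 members and 4.76% of all genes. The median log2 difference of the members was -0.06. Libraries did not overlap for 4 members, against 13.2% of all genes, 1 of them higher (Glrx5, with 6.96% of all genes higher) and 3 lower (Gclm, Srxn1 and Sod2, with 6.19%).

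The 3 members with the smallest p in each direction were Glrx5, Sod1 and Mt1 on the higher side and Gclm, Srxn1 and Mgst3 on the lower. Glrx5, a glutaredoxin of iron-sulfur cluster assembly, was at 11.9, 11.5 and 7.63 in D1 to D3 and at 12.4, 16.5 and 14.7 in H1 to H3. The groups did not overlap, but D3 was well below D1 and D2. Its log2 difference was 0.48 (SE 0.19, adjusted p = 0.883), and within batches it was 0.08 in batch 1 and 0.98 in batch 2. Gclm was at 51.4, 46.96 and 57.2 in D1 to D3 and 45.7, 45.3 and 45.3 in H1 to H3, a log2 difference of -0.19 (SE 0.08, adjusted p = 0.883) and, within batches, -0.10 in batch 1 and -0.33 in batch 2. Its 3 HAL libraries were nearly equal and just below D2. Sod1 was at 94.2, 82.5 and 79.7 in D1 to D3 and 91.3, 98.3 and 96.3 in H1 to H3, overlapping, with 0.16 (SE 0.08, adjusted p = 0.883). Srxn1 was at 90.05, 88.1 and 107 in D1 to D3 and 85.3, 88.04 and 81.7 in H1 to H3, with -0.16 (SE 0.08, adjusted p = 0.883) and within batches -0.06 in batch 1 and -0.33 in batch 2. Mgst3 was at 17.3, 15.1 and 16.4 in D1 to D3 and 15.4, 14.2 and 13.4 in H1 to H3, with -0.18 (SE 0.10, adjusted p = 0.883).

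Mt1 was higher on average under HAL, at 0.31 (SE 0.16, adjusted p = 0.883), and within batches 0.02 in batch 1 and 0.29 in batch 2, while Mt2 was at -0.23 (SE 0.19, adjusted p = 0.883) and within batches -0.05 in batch 1 and -0.63 in batch 2. The groups of both overlapped. Txnip, chosen after its values were seen, was at -0.60 (SE 0.36, adjusted p = 0.883), with -0.23 in batch 1 and -1.24 in batch 2, and the batch 2 difference rests on D3. For Gpx4 the difference was 0.09 (SE 0.08, adjusted p = 0.891) and for Prdx6 0.02 (SE 0.06, adjusted p = 0.971). With batch as a term no member was called, and the lowest adjusted p was 0.269, for Gclm, Txnip and Mt2, with log2 differences of -0.22, -0.76 and -0.34. Summed blood genes (Hba-a1, Hba-a2 and Hbb-bs) were at 30.6, 15.4 and 28.5 in D1 to D3 and 11.8, 96.1 and 78.8 in H1 to H3, and 3 lens genes at 0.285, 0.473 and 5.54 and 0.406, 22.4 and 0.208. Their part in the members' levels was not tested.

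**Figure D5:**
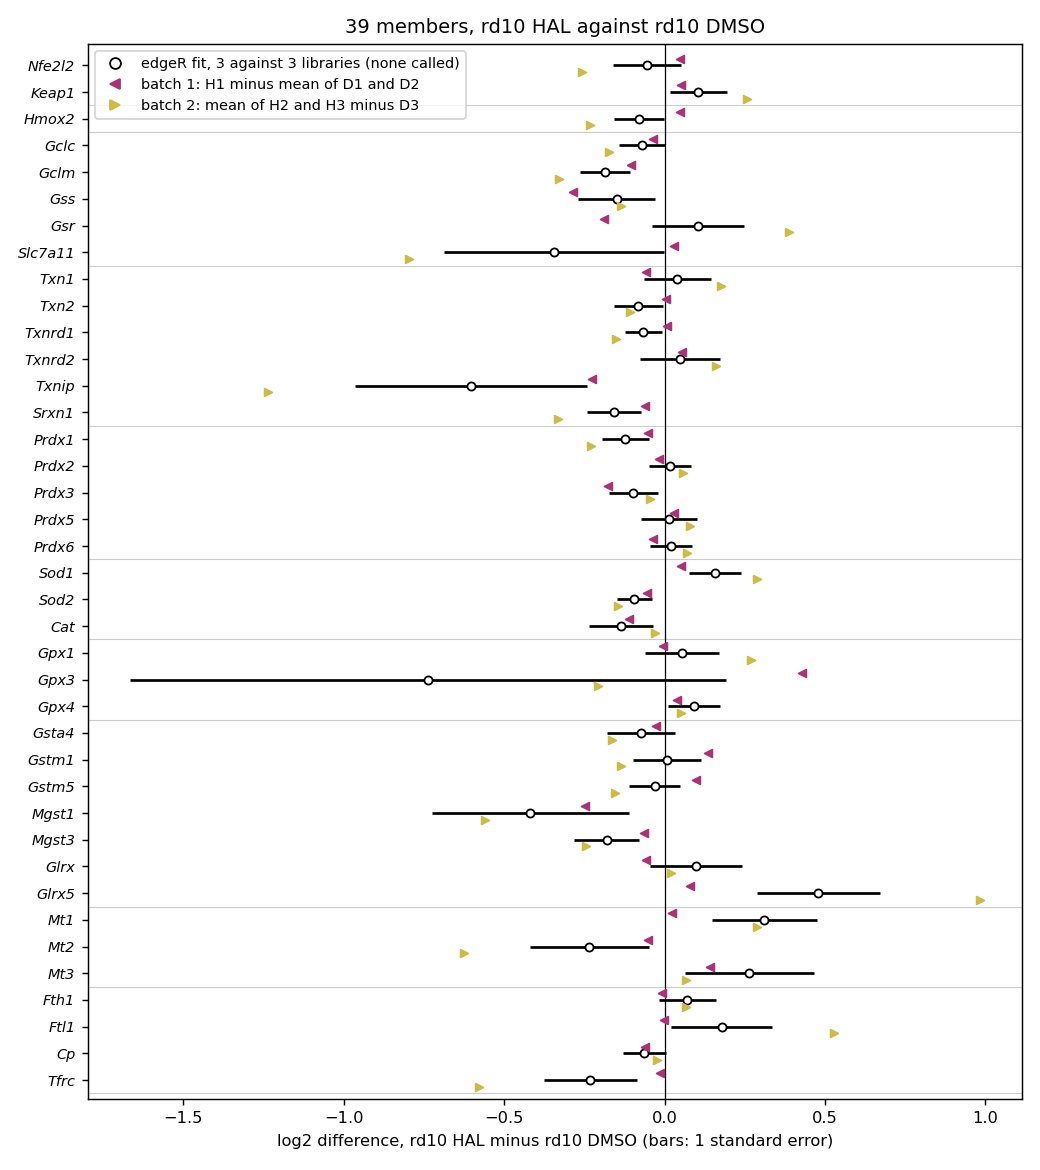
Log2 differences of rd10 HAL minus rd10 DMSO for the 39 members, with circles and bars of 1 standard error for the edgeR fit, purple triangles for H1 minus the mean of D1 and D2 (batch 1) and yellow triangles for the mean of H2 and H3 minus D3 (batch 2). No member was called, and Glrx5, Txnip and Slc7a11 differed more in batch 2 (0.98, -1.24 and -0.80) than in batch 1 (0.08, -0.23 and 0.03).

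Between the batches of rd10 libraries, Mt1 was higher in batch 2 (D3, H2 and H3). It was the 1 member of 39 called, against 4.63% of all genes, 3.09% higher and 1.55% lower. It was at 138, 121 and 131 in D1, D2 and H1 and at 157, 183 and 199.8 in D3, H2 and H3, without overlap, a log2 fold change of 0.41 (SE 0.09, adjusted p = 0.0493). Mt3 had 0.47 (SE 0.13, adjusted p = 0.0751) and Mt2 0.41 (SE 0.11, adjusted p = 0.0797), and neither passed the edgeR test, although their libraries did not overlap. DESeq2 called both (adjusted p = 0.0156 for Mt3 and 0.00778 for Mt2). Libraries did not overlap for 6 members, against 28% of all genes, with 5 higher in batch 2 (Mt1, Mt2, Mt3, Glrx and Gpx4, beside 15% of all genes) and 1 lower (Cat, beside 13%). The edgeR call of Mt1 was lost in the fit of all libraries (adjusted p = 0.921). It was also lost without D2 (adjusted p = 0.121), D3 (0.0773), H1 (0.0961), H2 (0.104) or H3 (0.102). Without H1, where Tfrc, Mt2 and Txnip were called higher and Glrx5 lower, batch 1 held only DMSO libraries. On the lower side the smallest p-values belonged to Cat, at -0.19 (SE 0.08, adjusted p = 0.184), Gpx1, at -0.20 (SE 0.10, adjusted p = 0.251), and Keap1, at -0.14 (SE 0.08, adjusted p = 0.295). Rod markers summed to 3261 to 3577 in the batch 1 rd10 libraries and to 6866 to 10064 in batch 2, and the 8 rod markers were all called higher in batch 2. The 8 Müller glia markers had negative log2 fold changes with a median of -0.22, of which 3 were called lower (Rlbp1, Kcnj10 and Abca8a), and their sum ranged from 7057 to 7758 in batch 1 and from 6374 to 7784 in batch 2. Of 7 gliosis markers 2 were called higher (Fgf2 and Lcn2) and 1 lower (Gfap). The part of these shifts in the metallothionein levels was not tested.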

How the data were processed

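Polyadenylated retinal RNA of 10 mice was sequenced from stranded libraries. Per the paper's methods, the authors assigned reads with Kallisto to the mouse transcriptome and deposited estimated counts per transcript and, through tximport, per gene. The labels name GRCm39. The deposited CPM values are a signal that the authors obtained from the gene counts with 1 factor per library. The authors' own halofantrine table (log2 fold change, mean expression, t, p, adjusted p and B) was not used.

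Estimated counts were rounded and tested in edgeR 4.0.16 (quasi-likelihood, filterByExpr, TMM, Benjamini-Hochberg over all genes tested, called at an adjusted p under 0.05), and standard errors were derived from the F statistic. Each comparison was fitted on its own libraries. Alternatives were DESeq2 1.42.0, limma-voom 3.58.1, median-ratio scaling, no filter, all libraries in one fit, batch as a term, W4 included and each library left out. Library size as the only scaling was added after seeing the data. Each library is a separate mouse by its label, and the number of counts, 15512212 to 38160436 per library, limits the precision of low genes. Of the gene counts 51.4% were whole, and 11492 of 11702 gene IDs had a symbol. Levels per length used the count-weighted mean transcript length in GENCODE M21. RefSeq promoters are of GRCm38.p6 and were not joined to GRCm39 coordinates.

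The members and lists were chosen with earlier results of these data known. Members called with 3 WT libraries were described in full, and in the other comparisons the 3 with the smallest p in each direction. From each pathway list, up to 3 called genes with the smallest p were named per direction.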

Additional observations from a re-analysis of the deposited data

Results flagged for a closer look

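Within the 4 libraries labelled WT, W4 stood apart from W1 to W3 for 9 of 39 members (23.1%) by Dixon's gap criterion, against 28.1% of all genes with W4 as the library apart. Any 1 of the 4 libraries stood apart for 29% of all genes, where chance gives about 1 in 20 groups, and fewer for a given library. Mt2 was at 89.2 scaled CPM in W4 against 9.56 to 13 in the others, Mt1 at 99.8 against 20.6 to 24.7, and Mt3 at 24.9 against 11.6 to 11.9. Prdx6 was at 328 against 117 to 130, Prdx1 at 97 against 61 to 66.1, Cat at 43.6 against 26.9 to 28.8, Gstm1 at 69 against 15.9 to 24.4, and Cp at 497 against 165 to 202. Gpx4 was lower in W4, at 186 against 308 to 324. Each of these 9 levels lay on the side of the rd10 libraries, as did those of the rod gene Pde6b.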

How the results depend on the processing

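With W1 to W3 as WT, the number of members called in rd10 DMSO was 22 and ranged from 19 to 31 over 12 alternatives. With 1 library left out it was 19 to 26, beside 6154 to 8460 of all genes (7280 with none left out). No member named in a comparison changed direction where it was called. Of 264 refitted log2 fold changes of the 22 members, 247 kept their call and 17 lost it, those of Hmox2, Ftl1, Slc7a11, Txnip and Gss. Without D3, Prdx2, Prdx5, Sod2 and Gpx1 were called higher (adjusted p = 0.0358, 0.028, 0.0478 and 0.00849) and Tfrc lower. Library size as the only scaling, chosen after seeing the data, moved the median log2 fold change of all genes to 0.19 and the calls among all genes to 5409 higher and 2031 lower in rd10 DMSO (3778 and 3502 otherwise) and to 5967 and 2447 in rd10 HAL (4177 and 4231 otherwise), with 31 and 35 members called. With 4 WT libraries, leaving out 1 library gave 0 to 22 members and 0 to 7280 genes called, the highest without W4, and DESeq2 called 589 genes. In rd10 HAL against WT, the fit of all libraries lost Fth1, Prdx5, Txn1 and Txnip (adjusted p = 0.0599, 0.083, 0.0752 and 0.069). Including W4 in rd10 HAL against WT left 0 members and 1 gene. Between HAL and DMSO, DESeq2 called 3 genes, and leaving out 1 library gave 0 to 7 genes, 1 without D1 and 7 without D2, and 0 members throughout. Between batches, DESeq2 called 3 members and 1419 genes, the fit of all libraries called 0 members and 0 genes, and leaving out 1 library gave 0 to 4 members and 91 to 2638 genes, the lowest without D3 and the highest without H1. The cause of these shifts was not tested. With the longest transcript as length, 24 of 39 levels per length moved by more than 1 SD. No paired analysis was possible because the replicate numbers follow accession order only and every mouse gave 1 library. With 3 mice per group, and 1 HAL library in batch 1 and 1 DMSO library in batch 2, drug and batch are separated by few libraries.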

Other observations

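The coefficient of variation was smaller in H1 to H3 than in D1 to D3 for 30 of the 39 members (76.9%), beside 69.3% of all genes, and larger for 9 (Fth1, Glrx, Gpx4, Gsr, Gss, Mgst3, Mt1, Prdx3 and Txn2), without a test. For 3 members, chosen after their values were seen, D2 was the lowest DMSO library and the gap was wide. The coefficient of variation of Slc7a11 was 46.4% in D1 to D3 and 11.1% in H1 to H3, that of Mgst1 was 41.6% and 9.12%, and that of Gpx3 was 113% and 34.7%. In the other direction, that of Mt1 was 12.9% and 20.9% and that of Prdx3 was 1.56% and 8.42%.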
